A study of Saccharomyces cerevisiae with 59 samples.

Results

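The phosphate (PHO) genes described here are 9 of the 5590 genes listed for this cell-cycle series. They were chosen by name, as the genes PHO5, PHO3, PHO8, PHO84, PHO89, SPL2, VTC3, PHO4 and PHO81, and each had a value in all 4 deposited tables at all 15 time points. Budding yeast of the W303 background (MATa, with BAR1::TRP and URA3::BrdU-Inc, and with the marker alleles ade2-1, can1-100 and his3-11,15 and a mutant leu2) was grown in rich medium (YPD) at 30 °C and arrested in G1 with the mating pheromone α-factor (50 ng/mL, 2 h). Arrested cells were the 0 min time point. Released cells had been washed, placed in fresh YPD and sampled every 10 min, here on an aligned time axis of 10 to 140 min that covered 2 cell cycles. For Replicate 1 the library labels after release are 10 min later than the aligned time. The study's 59 libraries were 30 MNase-seq and 29 total RNA libraries from 2 biological replicates, and RNA at 110 min came from 1 library. All samples share this genotype and none is labelled as starved of phosphate, so the usual name of phosphate starvation genes describes the condition that most of them are known to respond to and not one of this experiment.

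Budding yeast senses phosphate through the PHO pathway. When phosphate is plentiful, the cyclin-dependent kinase Pho85 with its cyclin Pho80 phosphorylates the transcription factor Pho4 and keeps it out of the nucleus. When phosphate runs short, the inhibitor Pho81 blocks the kinase, and Pho4 binds CACGTG sequences in the promoters of genes for phosphate uptake, release and storage. PHO5 is also a classic model promoter, at which nucleosomes are lost on induction.

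Each value below is the authors' value for a time point with the replicates merged. No column of single libraries was present, so there is no standard deviation, no n and no test between time points, and whether a difference exceeds the spread between the 2 cultures cannot be told. As a scale for what follows, RNA moved between neighbouring time points by a median of 0.10 on the log2 scale over all genes and steps. The time points of M/G1 (60 and 70 min in the first cycle, 120 and 130 min in the second) were set against those of S phase (20 and 30 min, 80 and 90 min). RNA differences are on the log2(value + 1) scale and count as called past 2-fold. Marker genes in the same tables were read as a check of these phases. The G1/S cyclin and replication genes had their highest median z-score at 10 and 70 min, the core histone genes at 20 and 80 min, and the G2/M genes at 50 and 110 min. For the M/G1 markers the median z-score was 1.57 at 60 min, the highest of the series, 1.23 at 70 min, 0.89 at 120 min and 0.99 at 130 min. Their later maximum was thus lower than the value at 70 min, and it stood above the -0.41 and -0.30 of 100 and 110 min. At the S phase time points it was -1.10 and -1.40 at 20 and 30 min, and 0.52 and -0.14 at 80 and 90 min. These markers thus set M/G1 apart from S phase less in the second cycle than in the first. At 140 min, an S phase time point, the median z-score of these markers was still 0.77. The paper names a gradual loss of synchrony as the reason for a weaker nucleosome shift in the second cycle. How far synchrony differed between the cycles was not tested here.

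The promoters of the members differ in their Pho4 core sequences. Stretches with some of these sites are shown to let them be compared, with PHO3 as a member that has none. In the 600 bp before the start codon the CACGTG core was present in 7 of the 9 members, against 413 of 5589 windows of the same length over all genes (7.39%). Cbf1, another yeast factor, binds the same core. A weaker Pho4 core, CACGTT or on the other strand AACGTG, was present in 6 of the 9 members and in 18.9% of all windows. PHO84, SPL2 and VTC3 held at least 2 CACGTG cores, as did 0.930% of all windows, and SPL2 held 4. PHO3 and PHO4 held neither core. The lines below run 5′ to 3′ along the minus strand of the R64 genome, on which all 9 genes lie, with the cores in capitals.
PHO5, chrII:431194-431323: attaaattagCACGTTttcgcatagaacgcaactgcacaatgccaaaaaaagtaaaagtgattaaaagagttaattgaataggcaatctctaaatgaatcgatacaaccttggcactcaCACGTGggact
PHO3, chrII:429344-429473, at the same distance from its own start codon: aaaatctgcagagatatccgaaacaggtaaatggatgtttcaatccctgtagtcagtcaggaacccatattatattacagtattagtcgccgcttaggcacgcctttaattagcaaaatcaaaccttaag
PHO84, chrXIII:26050-26250: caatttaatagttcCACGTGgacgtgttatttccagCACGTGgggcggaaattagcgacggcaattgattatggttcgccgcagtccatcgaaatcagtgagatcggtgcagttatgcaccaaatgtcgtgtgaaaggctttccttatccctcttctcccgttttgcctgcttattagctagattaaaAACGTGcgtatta
VTC3, chrXVI:517285-517373: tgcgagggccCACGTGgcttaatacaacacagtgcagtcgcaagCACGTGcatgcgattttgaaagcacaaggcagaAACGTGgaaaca
SPL2, chrVIII:375232-375257: atgatgtacgCACGTGggcgaaagtt
SPL2, chrVIII:375175-375200: tctcttttccCACGTGctccgctctc
PHO89, chrII:798830-798855: gacaatgcagCACGTGggagacaaat
PHO81, chrVII:958539-958564: ggtgttatggCACGTGcgaataaggg
PHO8, chrIV:1420770-1420795: ctacgtcgggcCACGTGcagcgatca

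The cores of PHO5 began 362 and 253 bases before its start codon, the weaker one first. Those of SPL2 began 361, 147, 90 and 31 bases before the start codon, and 2 of them are printed above. Weaker cores outside the printed stretches began 587 bases before the start codon in PHO84, 463 in PHO89, 380 in PHO8 and 8 in PHO81. A match describes the letters only and does not show that a factor was bound.

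**Figure D1:**
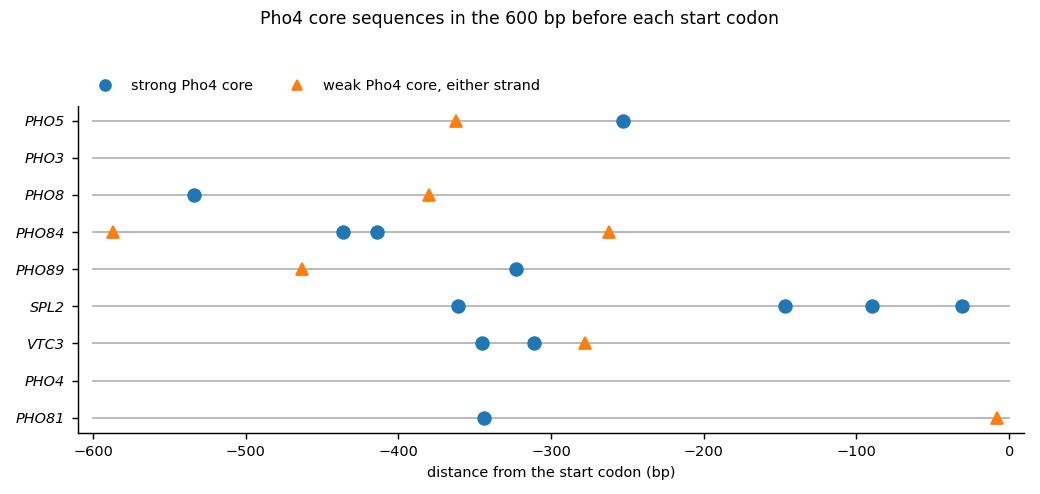
Positions of the Pho4 cores in the 600 bp before the start codon of each member (x axis, distance in bp). Circles are the CACGTG core and triangles the weaker core on either strand. SPL2 has 4 circles, and the lines of PHO3 and PHO4 are empty.

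PHO5, PHO3 and PHO8 encode phosphatases, and the first pair peaked in G2/M and M in both cycles. PHO5 (YBR093C, chrII:429548-430951) encodes the repressible acid phosphatase of the cell surface. Its RNA was 16.4 at arrest and 17.5, 19.2 and 23.8 at 10, 20 and 30 min. It was 47.8, 75.2 and 53.9 at 40, 50 and 60 min and 23.4, 18.1 and 16.9 at 70, 80 and 90 min. In the second cycle it was 40.9, 76.0, 86.4 and 73.5 at 100, 110, 120 and 130 min, and it was still 66.3 at 140 min. The 2 peaks were thus of similar height, whereas the return to the low level that followed the first peak had not occurred by the last time point. At that time point the M/G1 markers also still had a median z-score of 0.77. In the second cycle, M/G1 averaged 79.7 and S phase 17.5, a log2 difference of 2.13, and none of the other 5589 genes had a larger one. In the first cycle M/G1 averaged 35.6 and S phase 21.4, a log2 difference of 0.71. That value depended on which time points were taken, since the RNA was already low at 70 min. Without 70 min the difference was 1.30, and without 60 min it was 0.12.

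PHO3 (YBR092C, chrII:427698-429101) lies just downstream of PHO5, with 446 bp between them, and encodes a constitutive acid phosphatase that acts on thiamine phosphates. The coding sequences of both genes are 1404 bp long and identical at 1215 positions (86.5%). PHO3 RNA was 29.7 at arrest and 37.4, 35.6 and 65.1 at 10, 20 and 30 min. It reached 277, 519 and 329.5 at 40, 50 and 60 min, and was 156, 94.7 and 79.6 at 70, 80 and 90 min. The second peak was lower, with 177, 191, 229 and 139 at 100, 110, 120 and 130 min. The highest value was 2.87 times the lowest within the second cycle and 14.6 times the lowest within the first, where only 15 genes had a larger log2 range. M/G1 averaged 179 and S phase 86.8 in the second cycle, a log2 difference of 1.03, and 227 and 48.2 in the first, a difference of 2.21. PHO3 RNA exceeded PHO5 RNA at all 15 time points on this length-scaled measure. Of the 25-base words of the coding sequences, the MNase-seq read length, 24.3% in PHO5 and 19.8% in PHO3 occur elsewhere in the genome. How the RNA reads of the shared stretches were assigned is not given in the sources used here, so some signal of the one gene may stand under the other. The profiles were correlated but not alike (Pearson r = 0.76 over the 15 time points), with PHO3 higher at 50 min than at 120 min and PHO5 lower.

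PHO8 (YDR481C, chrIV:1418550-1420250), which encodes the vacuolar alkaline phosphatase, peaked at other times. Its RNA was highest at 10 min (109.7) and lowest at 50 min (59.6), the time of the PHO3 peak, and it was 101 at 140 min. The highest value of the first cycle was 1.84 times the lowest, and 935 genes had a larger log2 range. Over the 15 time points it ran against PHO3 (r = -0.70). The log2 difference of M/G1 over S was 0.16 in the second cycle and -0.25 in the first.

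**Figure D2:**
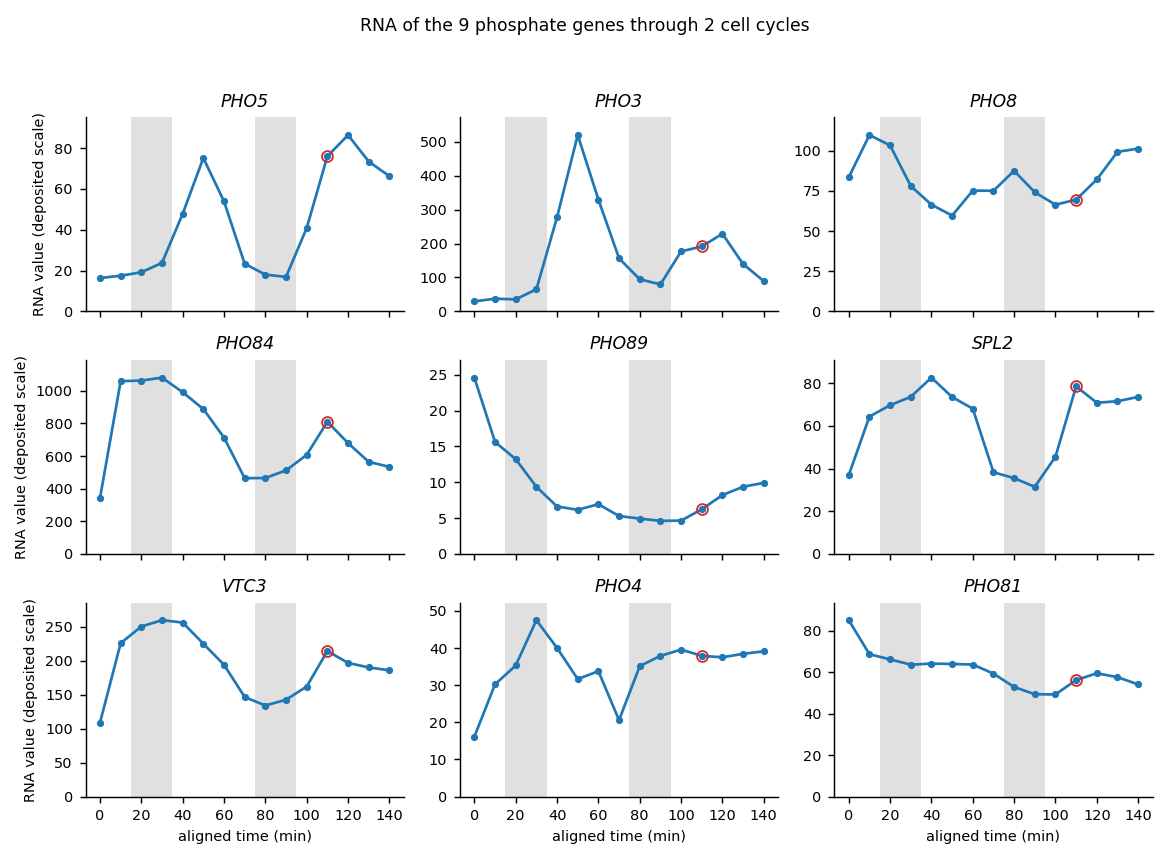
RNA of each member (y axis, deposited scale, from 0) against aligned time (x axis, min). Grey bands mark the S phase time points and the red ring marks 110 min, which rests on 1 library. PHO5 and PHO3 peak at 50 and 120 min, and PHO84, SPL2 and VTC3 fall to low values around 70 to 90 min.

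PHO84, PHO89, SPL2 and VTC3 serve uptake and storage, and in all 4 the order of M/G1 and S phase was opposite in the 2 cycles. PHO84 (YML123C, chrXIII:24037-25800) encodes the high-affinity proton-coupled phosphate transporter and had the highest RNA of the members, with a mean of 718, above 95.8% of genes. It was 342 at arrest and 1058, 1062 and 1080 at 10, 20 and 30 min. It was 991, 888 and 713 at 40, 50 and 60 min and 464, 465, 512 and 607 at 70, 80, 90 and 100 min. The second maximum was 809.8 at 110 min, and 679, 564 and 534 followed. The step up from 0 to 10 min, 1.63 on the log2 scale, was the largest between any neighbouring time points of this gene.

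VTC3 (YPL019C, chrXVI:514511-517018) encodes a subunit of the vacuolar transporter chaperone, which makes and stores polyphosphate. Its RNA followed that of PHO84 closely (r = 0.95). It was 109 at arrest, 226 at 10 min and 259.8 at 30 min, then 194 at 60 min, 134 at 80 min and 214 at 110 min, and 186 at 140 min. SPL2 (YHR136C, chrVIII:374654-375100) encodes a small protein that restrains low-affinity phosphate uptake. Its RNA was 36.8 at arrest, 64.3 at 10 min and 82.5 at 40 min. It was 38.3, 35.5 and 31.4 at 70, 80 and 90 min, 45.5 at 100 min and 78.4, 70.8, 71.5 and 73.5 from 110 to 140 min. Over the 15 time points SPL2 was correlated with VTC3 (r = 0.88) and with PHO5 (r = 0.67), and like PHO5 it was still high at 140 min. Without the arrest time point the correlations with VTC3 were 0.93 for PHO84 and 0.88 for SPL2.

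PHO89 (YBR296C, chrII:796798-798522) encodes the sodium-coupled phosphate transporter and had the lowest RNA of the members. It was highest at arrest (24.6), was 15.6, 13.2 and 9.37 at 10, 20 and 30 min and lay between 4.62 and 6.95 from 40 to 110 min. It was 8.21, 9.38 and 9.92 at 120, 130 and 140 min. Within the first cycle its highest value was 2.54 times its lowest.

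The 2 regulators had different profiles (r = -0.60 with each other). PHO4 (YFR034C, chrVI:225020-225958) RNA was 16.1 at arrest, 30.2 at 10 min and 47.5 at its highest at 30 min, then 20.6 at 70 min and between 35.1 and 39.6 from 80 to 140 min. Its lowest values thus stood at 0 and 70 min, both G1 time points. At the other G1 time points, 10 and 130 min, it was 30.2 and 38.5, with a median of 37.5 over the series. PHO81 (YGR233C, chrVII:954674-958210) RNA was highest at arrest (85.1) and varied least, between 49.3 and 68.7 after release. Its profile was correlated with that of PHO89 (r = 0.82, and 0.67 without the arrest time point). Without arrest it was also correlated with those of PHO84 and VTC3 (0.77 each), against 0.12 and 0.07 with it.

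Between M/G1 and S phase of the first cycle, 1 member passed 2-fold upward, PHO3, against 1.63% of all genes, and 0 passed downward, against 1.9%. The members' median was -0.48 and that of all genes -0.09. In the second cycle 3 members passed upward, PHO5 (2.13), SPL2 (1.07) and PHO3 (1.03), against 0.662% of all genes, and 0 passed downward, against 0.25%. All 9 members were above 0 there, with a median of 0.48, while the median of all genes was -0.0021. SPL2 and PHO3 stood close to the threshold, at 0.98 and 0.91 without the 90 min time point and at 0.90 and 0.96 with a pseudocount of 10. PHO5 stayed past it in both.

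The uptake and storage genes gave the opposite sign in the 2 cycles. For PHO84, M/G1 over S was 0.34 in the second cycle and -0.90 in the first, for PHO89 it was 0.76 and -0.78, for SPL2 1.07 and -0.48, and for VTC3 0.48 and -0.59. In each of these 4 genes, both M/G1 values lay above both S values in the second cycle and below them in the first, a pattern found in 10.8% of all genes. The second cycle minus the first was 1.24 in PHO84, 1.54 in PHO89, 1.55 in SPL2 and 1.08 in VTC3, and between 45 and 111 of all genes had a larger difference than the gene concerned. The sign of SPL2 in the first cycle rested on 70 min, since its RNA at 60 min (68.0) was close to that at 20 min (69.6). Its first-cycle difference was -0.07 without 70 min and -0.89 without 60 min. That of PHO84 was -0.59 without 70 min and that of VTC3 -0.39.

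The S phases themselves differed between the cycles in these genes. S phase of the second cycle averaged 488 in PHO84, against 1071 in the first, 33.4 in SPL2, against 71.5, 4.78 in PHO89, against 11.1, and 138 in VTC3, against 255. The log2 differences were -1.13, -1.08, -1.07 and -0.88, while all genes had a median of -0.12. PHO84, SPL2 and PHO89 passed 2-fold downward, as did 1.43% of all genes. PHO3 was higher, by 0.84, and PHO5, PHO8, PHO4 and PHO81 lay between -0.34 and -0.16. With each time point scaled to its upper quartile over genes, the median of all genes moved by 0.18, and PHO84 was at -0.94, PHO89 at -0.90 and SPL2 at -0.89, short of 2-fold. On the aligned axis the first S phase followed the change to fresh medium by 20 to 30 min, and by 10 min more in the labels of Replicate 1. Time since the medium change and cycle number cannot be told apart.

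Over the 5 matched pairs of time points 60 min apart, no member passed 2-fold between the second cycle and the first, upward (0.394% of all genes) or downward (0.376%). The differences ranged from -0.63 (PHO84) to 0.01 (PHO4). In PHO84 the difference was -1.19, -1.08, -0.71, -0.13 and -0.07 at the pairs that begin at 80, 90, 100, 110 and 120 min. In SPL2 it was -0.95, -1.20, -0.84, 0.09 and 0.06. In both genes the first 3 pairs held the difference and the last 2 were near 0. Of those 2, the pair that begins at 110 min sets RNA from 1 library against a merged value.

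Ranges within a cycle were taken on the log2(value + 1) scale. Within the first cycle (10 to 60 min), PHO3, PHO5 and PHO89 had a range of more than 2-fold, as did 13.2% of all genes. Within the second (70 to 130 min) PHO5, PHO3 and SPL2 did, against 6.35% of all genes. PHO89 was at 1.85-fold there, and at 2.03-fold without the pseudocount. Only 9 genes had a larger log2 range than PHO5 (2.29) there. The range of SPL2 was 1.29. The 70 min time point, part of M/G1 of the first cycle above, was counted in the second cycle for these ranges. Which members pass in which cycle therefore depends on where it is placed. RNA at 70 min was 464 in PHO84, 38.3 in SPL2 and 20.6 in PHO4, against maxima of 1080, 82.5 and 47.5 from 10 to 60 min.

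Arrest was set against the mean of the 14 released time points. PHO3 (-2.11), PHO5 (-1.18), PHO4 (-1.09) and PHO84 (-1.06) were more than 2-fold lower at arrest, as were 7.78% of all genes, and PHO89 (1.60) was more than 2-fold higher, as were 10.4%. VTC3 (-0.83) and SPL2 (-0.69) were lower by less than 2-fold. PHO81 was at 0.52 and PHO8 at 0.05. These differences hold several time courses. Against 10 min alone, PHO84 was at -1.63 and VTC3 at -1.05, and PHO4 (-0.87), PHO89 (0.62), PHO3 (-0.32) and PHO5 (-0.09) were short of 2-fold. Against the next G1 time point, 70 min, PHO3 (-2.36) and PHO89 (2.03) stayed past 2-fold and PHO5 (-0.49), PHO84 (-0.44) and PHO4 (-0.33) did not. With a pseudocount of 10, PHO89 (0.97), PHO5 (-0.92) and PHO4 (-0.81) lost the call and PHO3 and PHO84 kept it. The mating pheromone genes were at their highest median z-score at 0 min. Pheromone, arrest and the medium before release cannot be told apart here.

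**Figure D3:**
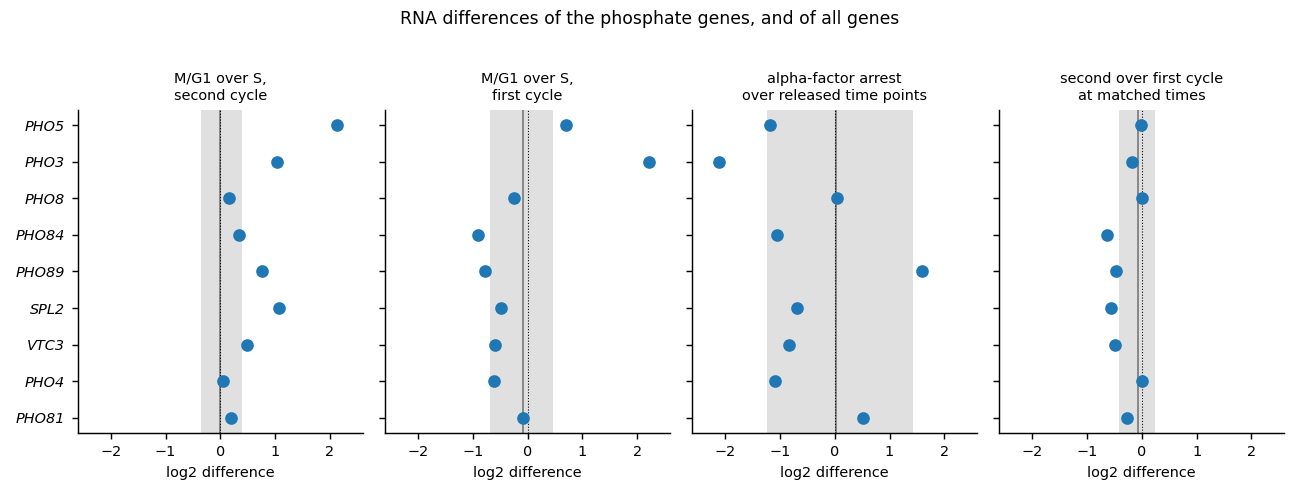
RNA differences of the 9 members (points, log2) in the 4 comparisons. The grey band runs from the 5th to the 95th percentile of all genes and the grey line is their median. In the M/G1 over S panels, PHO84, PHO89, SPL2 and VTC3 lie right of 0 in the second cycle and left of 0 in the first, and PHO5 is farthest right in the second at 2.13.

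Other phosphate genes gave a wider view, through 23 genes of fixed lists. Between M/G1 and S phase, 1 of 23 passed 2-fold upward in the second cycle (0.662% of all genes) and 0 in the first (1.63%), and 0 passed downward in either. The one was PHM8 (1.15), which encodes a lysophosphatidic acid phosphatase and had its highest RNA at 140 min (62.3). At arrest 2 of 23 passed, both upward, a share near the 10.4% of all genes that did so. Both serve the use of glycerophosphodiesters. GIT1, a permease for glycerophosphoinositol and also for phosphate, was 53.3 at arrest and 13.1 at 50 min (log2 difference 1.75 over all released time points), and the glycerophosphodiesterase gene GDE1 was 56.0 and 25.6 (1.02). The 3 other measured subunits of the vacuolar transporter chaperone, VTC1, VTC2 and VTC4, lay between -0.44 and -0.26 at arrest. VTC1 had the highest RNA of its list, between 905 and 1415. Among the 6 regulators, with medians of 0.09 and -0.07 for M/G1 over S of the second and first cycle, the inositol pyrophosphate kinase gene VIP1 was the most abundant, at a mean of 80.3. PHO88, which acts in the maturation of Pho84, led the carriers at a mean of 851, and PHO13, a phosphatase gene, led the polyphosphate and phosphatase list at 135.

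Outside the members, the RNA profiles most like their mean profile were those of VTC2 and VTC4 (r = 0.88 each), the lysyl-tRNA synthetase gene KRS1 (0.80), the ergosterol gene ERG2 (0.78) and the nucleotidase gene SDT1 (0.77), over 15 time points and among 4967 genes with a mean of at least 10. VTC2 and VTC4 encode partners of Vtc3. Most like PHO5 were BNA4 (0.87), of NAD biosynthesis, YPT31 (0.87), a Rab GTPase gene of the secretory pathway, and FUN26 (0.85), a nucleoside transporter gene. BNA4 lay between 25.4 and 40.4. Among genes chosen after their values were seen, those most like PHO3 were YML119W and MMR1 (0.98 and 0.97), CHS2 (0.97), which encodes the chitin synthase of the division septum, the kinase gene TOR2 and the cytokinesis gene IQG1 (0.97 each). All 5 were highest at 50 min.

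Chromatin was measured by MNase-seq as a promoter subnucleosome score, for short fragments over the promoter, as a gene-body nucleosome score and as a gene-body entropy, which is high where nucleosome positions are disordered. The members covered a wide range in each. PHO5 had a low promoter score, with a mean of 0.00683 that exceeded only 3.67% of genes, and a gene-body nucleosome score above only 1.13%. Its entropy of 6.09 exceeded 96.0% of genes. PHO3, its tandem paralog, stood at 74.7%, 17.2% and 86.4% in the same order. The MNase-seq reads were kept only where they matched 1 place in the genome, and PHO5 and PHO3 hold the repeated 25-base words given above. PHO8 and PHO4, with no repeated word, stood at 20.5% and 19.7% in the gene-body nucleosome score, close to PHO3. The remaining members stood higher, PHO84 at 38.9%, PHO89 at 39.8%, VTC3 at 40.5% and SPL2 at 63.2%, all with no repeated word. PHO81, with 0.34% of its words repeated, stood at 37.2%. The part of the repeated words in these values was not tested.

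PHO84 had the most disordered gene body of the members, with entropy between 6.17 and 6.19 at every time point, above 99.9% of genes. SPL2 stood at the other end, at 5.46, above 6.48% of genes, with a nucleosome score above 63.2%. Its listed start site lies 92 bp inside its coding sequence, so the windows used for it may not match its transcript. PHO81 had the highest promoter score, 0.0556, above 97.7% of genes. PHO8 (15.4%) and PHO89 (20.1%) had low promoter scores. PHO4 and VTC3 lay within the middle of the range in entropy, at 41.4% and 50.3%.

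**Figure D4:**
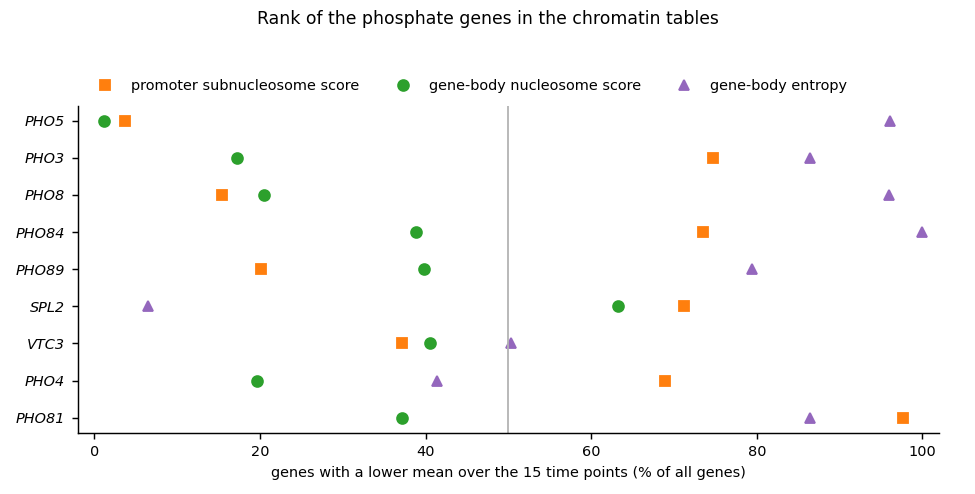
Share of all genes with a lower mean over the 15 time points (x axis, %), for the promoter subnucleosome score (squares), the gene-body nucleosome score (circles) and the gene-body entropy (triangles). PHO5 lies at 3.67% and 1.13% in the scores and at 96.0% in entropy, and SPL2 is the one member below 10% in entropy.

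The chromatin values of the members were compared over the same time points. Differences were centred on the median of all genes, which for the promoter score was -0.19 and -0.10 (log2) for M/G1 over S of the second and first cycle and 0.20 for arrest. The promoter score counted as called past 0.5, the nucleosome score past 0.25 (both log2) and entropy past 0.1. For M/G1 over S, 0 members were called in the promoter score in either cycle (0.805% of all genes in the second and 1.29% in the first) and 0 in the nucleosome score (1.16% and 4.36%). PHO5 was at 0.26 and 0.03 in the promoter score in the second and first cycle, SPL2 at 0.31 and 0.11 and VTC3 at 0.28 and -0.21. In entropy PHO4 was called in both cycles (0.11 in the second, 0.13 in the first) and SPL2 in the second (0.10), against 1.65% of all genes in the second and 6.94% in the first. These are differences from the other genes. Before centring, PHO4 was at 0.07 in both cycles and SPL2 at 0.06 in the second.

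At arrest, SPL2 had the lowest promoter score of its 15 time points, 0.0247, against a mean of 0.0309 over released time points (-0.53 after centring), and 4.79% of all genes passed this threshold. It was -0.32 before centring. The gene-body nucleosome score of PHO89 was 0.0379 at arrest, its lowest, against 0.0457 (-0.28), where 14.4% of all genes passed. The entropy of PHO4 was 5.60 at arrest, its lowest, against 5.77 (-0.11), where 18.3% passed. PHO89 RNA was at its highest at this time and PHO4 and SPL2 RNA were low.

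RNA and promoter score followed each other most closely in VTC3. Its promoter score was 0.0159 at arrest, 0.0212 at 10 min and 0.0222 at its highest at 40 min, then 0.0152 at its lowest at 70 min and 0.0201 at 110 min. Over the 15 time points the correlation with its RNA was 0.90 (Spearman's rho 0.89), it was 0.89 without the 2 time points of RNA farthest from the median, and 0.84 after the median course of all genes was taken from both. The correlation was 0.58 in SPL2 and 0.57 in PHO84 (rho 0.57 and 0.60), 0.46 in PHO5 and 0.45 in PHO3 (rho 0.58 and 0.36), and between -0.27 and 0.31 in the other 4. The members' median was 0.45 and that of all genes 0.22. After the median course was removed they were 0.65 and 0.14, with 0.71 in PHO5 and 0.76 in PHO3. PHO8 (0.32), PHO4 (0.20), PHO81 (0.14) and PHO89 (-0.27) stayed lower. The PHO3 promoter score was highest at 50 min (0.0411), when its RNA was highest. That of PHO5 was highest at 30 min in the first cycle (0.00774), before its RNA peak, and at 110 min in the second (0.00804). In PHO84 the score was 0.0299 at arrest, 0.0396 at 20 min and 0.0429 at its highest at 50 min, then 0.0286 at 80 min, 0.0322 at 100 min and 0.0200 at its lowest at 130 min. Neighbouring time points resemble each other and the points share their libraries with all genes, so these are descriptions over 15 points.

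**Figure D5:**
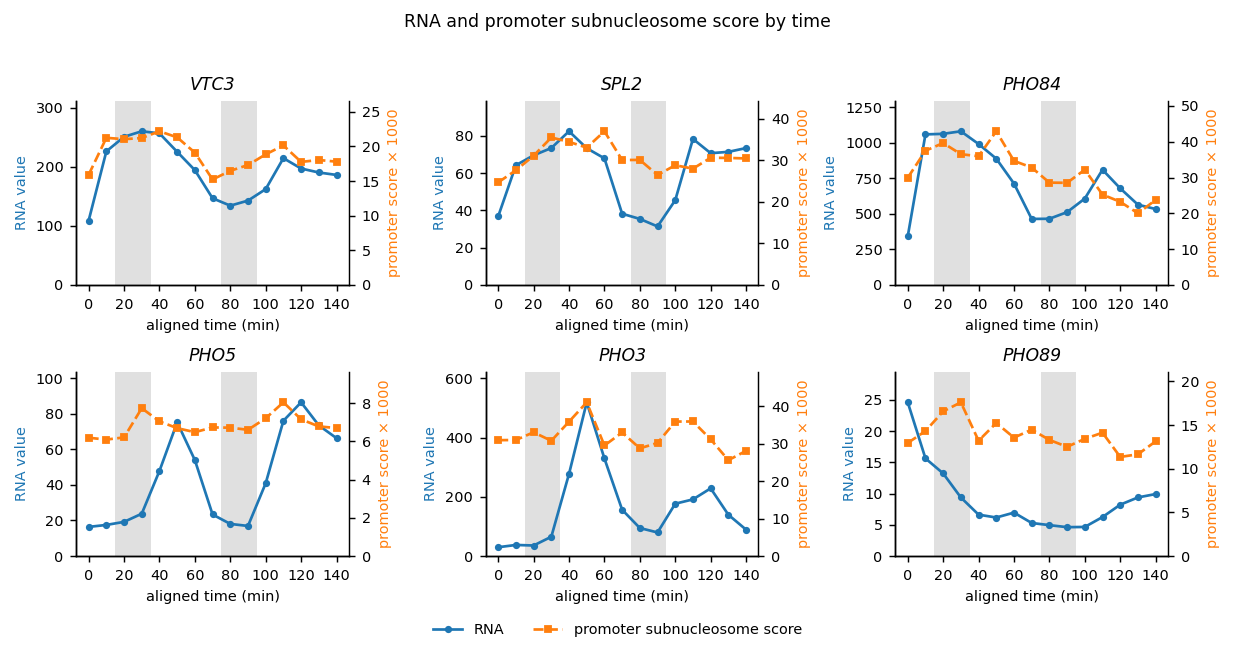
RNA (blue circles, left axis, deposited scale) and promoter subnucleosome score times 1000 (orange squares, right axis) against aligned time (min) for 6 members. Both axes start at 0 and grey bands mark S phase. The curves run together in VTC3 (r = 0.90), where the promoter score lies between 0.0152 and 0.0222. In PHO5 (r = 0.46) RNA moves several-fold and the promoter score lies between 0.00609 and 0.00804.

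In the gene body, the nucleosome score ran against RNA in PHO89 (r = -0.83, rho -0.62), PHO84 (-0.69 and -0.69) and VTC3 (-0.64 and -0.52), with a median of -0.32 over members and -0.20 over all genes. In PHO84 it was 0.0391 at 10 min, 0.0367 at 50 min, 0.0490 at 90 min and 0.0511 at 140 min, and without the arrest time point r was -0.81. In PHO89, r without arrest was -0.68. The SPL2 score climbed over the series, with 0.0473 at 0 min, 0.0548 at 30 min, 0.0573 at 80 min and 0.0628 at 140 min, and its correlation with RNA was 0.18 (rho 0.25). Entropy was correlated with RNA at 0.55 in SPL2 and VTC3 and 0.52 in PHO4 (rho 0.61, 0.55 and 0.09). Without the arrest time point r was 0.44 in SPL2, 0.37 in VTC3 and 0.03 in PHO4. The members' median was 0.30 and that of all genes 0.17.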

How the data were processed

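Values were the authors' merged values per aligned time point, for 59 libraries (29 total RNA, 30 MNase-seq). The authors aligned reads with Bowtie 0.12.7 to the R64 (sacCer3) genome and, for MNase-seq, kept unique matches, drew the same number of reads of every fragment length at each time point of a replicate and merged 2 replicates. Every unit was treated as a score deposited by the authors. The nucleosome score is a cross-correlation with a kernel of nucleosome fragments, and the authors' methods divide it by DNA copy number relative to arrest. That the gene-body table holds the divided score is not stated for the table itself. The entropy is the Shannon entropy of that score, and how the promoter score was computed is not given. RNA is named TPM, but its column sums ran between 949828 and 1041384. The depth of single genes is unknown. Columns of single libraries numbered 0.

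Time points, not libraries, were compared, as mean log2(RNA + 1), log2(score) or entropy, the chromatin differences centred on the median of all genes. The members and lists were chosen with earlier results of these data known. Named genes were the members, list genes past 2-fold at arrest or in both cycles and the highest gene of each list, and the genes most like the members' mean profile (5) and PHO5 (3). PHM8, named outside this rule, and the list for PHO3 were chosen after their values were seen, as were the ranges within cycles and the comparison of the S phases. PHO11, PHO12 and VTC5 were on the fixed lists but had no entry under these names, so they were not analysed here. Gene coordinates of 5579 of 5590 genes equal those of RefSeq on R64, the source of the sequences. For the Replicate 2 MNase library at 10 min the labels disagree on release, and its time label was used. Difference scripts were tested on simulated data. Python 3.11.15, numpy 2.4.6, pandas 2.3.3 and matplotlib 3.10.9 were used. Alternatives were other pseudocounts, scaling, filters, thresholds, centring and time points.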

Additional observations from a re-analysis of the deposited data

Results flagged for a closer look

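For RNA, 4 members had M/G1 values on opposite sides of the S phase values in the 2 cycles, with no overlap in either. The M/G1 over S difference of the second cycle minus that of the first was 1.24 (log2) in PHO84, 1.54 in PHO89, 1.55 in SPL2 and 1.08 in VTC3. No test of this difference was run, since each time point is 1 merged value, and 10.8% of all genes showed the same pattern.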

How the results depend on the processing

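No paired analysis was possible because each deposited column holds both replicates together, and no replicate could be left out either. Of 99 counts or medians recomputed, 72 stayed within 1.5 times the reported count or within 0.2 of the reported correlation. Values of single members were recomputed 698 times. A change of sign was looked for only where the reported value was called, which most were not, and none was found. Ranges within a cycle cannot change sign. Some uncalled values did change sign. For M/G1 over S in RNA of the first cycle, the number of members called was 1 as reported, 6 at 1.5-fold, and 2 without the 60 min, the 70 min or the 30 min time point. In the second cycle it was 3 as reported and 1 with a pseudocount of 10, at 3-fold and without the 90 min time point. At arrest it was 5, and 2 with a pseudocount of 10, at 3-fold, against 10 min only and against 70 min only. At matched times it was 0, and 1 at 1.5-fold. PHO89, with a mean of 9.05, was not among genes with a mean of at least 10. For S of the second cycle over the first it was 3, and 1 with upper-quartile scaling, where PHO3 (1.03) passed instead. That scaling moved the median of all genes by 0.12 in M/G1 over S of the first cycle, by 0.11 at matched times and by 0.18 between S phases, and changed the sign of uncalled values of PHO81, PHO8, PHO5 and PHO4. In the promoter score at arrest, 1 member was called and 0 without centring or with a pseudocount. In the nucleosome score, 1 was called at arrest and 0 with a pseudocount, and 0 were called in M/G1 over S of the second cycle and 1 without the 120 min time point. In entropy, 1 was called in the first cycle, 4 as z-scores, 0 without 60 min and 2 without 70 min. In the second cycle 2 were called, 0 without centring, and 1 without the 120, 130, 80 or 90 min time point. At arrest 1 was called, 2 without centring and 5 as z-scores. The causes of these changes were not tested. RNA at 110 min rests on 1 library, and without it the same number of members, 3, passed 2-fold within the second cycle.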
